A study of Mus musculus with 4 samples.

Results

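The genes described here are receptors for lysophospholipids, measured in microglia, the macrophages that reside in the brain, grown from mice. The set names 5 receptors for lysophosphatidic acid (LPA), Lpar1, Lpar2, Lpar4, Lpar5 and Lpar6, and 4 receptors for sphingosine 1-phosphate (S1P), S1pr1, S1pr2, S1pr3 and S1pr4. The members were matched by exact gene symbol to probe sets that carry 1 symbol, which gave 8 of the 9 a value, out of 19938 genes in all; Lpar5 was named on none and has no value here. The set was put together because Lpar6 was much lower with lipopolysaccharide (LPS), so the LPS differences of the members below are a description and were given no test.

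The study used 4 Mouse Gene 1.0 ST arrays (Affymetrix), 1 for each of 4 groups: microglia labelled Bid-/- with LPS for 3 h, microglia labelled Bid-/- without agent, wild-type (WT) microglia with LPS for 3 h, and WT microglia without agent. Bid is a death-promoting relative of Bcl-2, and LPS is a bacterial cell wall component sensed through TLR4. The strain is labelled for WT, as C57Bl; for the cells labelled Bid-/- no strain is labelled, and for neither genotype are sex, age or separate cultures stated. With 1 array a group, differences between arrays were not checked by replicates, and precision is limited by that number.

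LPA and S1P are small lipids that signal outside the cell. LPA is made mainly from lysophosphatidylcholine by the secreted enzyme autotaxin, and S1P from sphingosine by sphingosine kinases inside the cell, from which transporters export it. Their receptors are G protein-coupled and fall into an older family, to which all the S1P receptors and Lpar1, Lpar2 and Lpar3 belong, and a group related to the P2Y nucleotide receptors, to which Lpar4, Lpar5 and Lpar6 belong. Through Gi, Gq and the Gna12 and Gna13 proteins they control migration, cell shape and survival. In immune cells S1pr1 is known for guiding cells along S1P gradients, and it is held off the surface by the activation antigen Cd69.

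Pairs of arrays had a Pearson's r, over 28944 probe sets, that ran from 0.984 to 0.996. The probe set of Bid read 5.97 with LPS and 5.53 without on the arrays labelled Bid-/-, and 5.02 with LPS and 5.69 without on the WT arrays (log2 expression), so Bid was not low on the arrays labelled Bid-/-. Whether its probes fall inside the deletion is not stated, and genotypes below are those of the labels. Of the 12 microglia markers measured, 10 reached a floor of 4.26 on at least 1 array, among them Csf1r, Itgam and Fcrls, while Gpr34 and Siglech did not. Of the other cell types, fibroblasts and mural cells had 9 of 12 measured markers at the floor, astrocytes 6 of 8, oligodendrocytes 5 of 7, endothelium 4 of 8, lymphocytes 2 of 6, and neurons and neutrophils 1 of 8 each. The floor is the median of the probe sets' 4-array means and is used below to decide which genes enter a comparison. Of all 19938 genes 11326 reached it on at least 1 array, so these counts alone do not show that a cell type was present. Of the astrocyte markers, Sox9 (at most 4.35) and S100b (at most 4.37) were just above it, and Gfap and Aqp4 under it.

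The upstream sequences of Lpar6, S1pr2 and Lpar1, the 3 members with the widest mean LPS difference among those with a promoter in the RefSeq table (GRCm38.p6), are shown, to set their base composition side by side. Each line gives the 250 bases before the annotated transcription start, 5′ to 3′ on the gene's strand, with CpG dinucleotides in capitals. The Lpar6 sequence is chr14:73237641-73237890 on the plus strand, that of S1pr2 is chr9:20976794-20977043 on the minus strand, and that of Lpar1 is chr4:58553492-58553741 on the minus strand, the most upstream of its 3 annotated starts.
Lpar6: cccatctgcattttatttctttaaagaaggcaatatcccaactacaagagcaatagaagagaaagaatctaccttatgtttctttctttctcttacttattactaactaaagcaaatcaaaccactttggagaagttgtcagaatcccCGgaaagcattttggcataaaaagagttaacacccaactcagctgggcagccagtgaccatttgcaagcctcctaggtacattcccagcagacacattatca
S1pr2: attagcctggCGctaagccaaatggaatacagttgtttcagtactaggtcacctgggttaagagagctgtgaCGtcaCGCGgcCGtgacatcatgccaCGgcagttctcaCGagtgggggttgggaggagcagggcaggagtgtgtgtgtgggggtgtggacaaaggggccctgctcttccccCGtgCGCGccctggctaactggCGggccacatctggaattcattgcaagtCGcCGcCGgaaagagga
Lpar1: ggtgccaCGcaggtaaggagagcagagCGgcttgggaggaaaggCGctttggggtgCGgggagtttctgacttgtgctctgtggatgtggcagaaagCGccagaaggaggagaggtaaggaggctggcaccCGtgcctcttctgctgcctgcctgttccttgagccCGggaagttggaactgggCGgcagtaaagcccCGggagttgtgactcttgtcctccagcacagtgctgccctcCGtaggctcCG

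The Lpar6 sequence holds 1 CpG and is 39.2% G and C, against 14 CpG and 59.2% for S1pr2 and 11 CpG and 62.0% for Lpar1. The contrast with Lpar1 depends on the start taken: the next start downstream has 28 CpG and 70.0%, and the last has 3 CpG and 41.6%, close to Lpar6. Over 32851 promoters of the same length the median was 6.0 CpG and 52.4% G and C, and 7.9% of promoters held fewer CpG than Lpar6. S1pr4, with 0 CpG and 38.8% G and C, was close to Lpar6 in composition. Searched on both strands, the Lpar6 sequence held none of GAGGAA (an ETS core of the PU.1 type, in 23.3% of all promoters), TGANTCA (AP-1, 6.75%), TGACGTCA (the cAMP response element, 1.55%) or TATAAA (12.4%), nor a loose NF-kB pattern (45.8%). The S1pr2 sequence held 1 TGACGTCA, and the Lpar1 sequence 1 GAGGAA. Such matches describe these windows only. S1pr1 is not in the promoter table.

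Lpar6 was the member with the widest spread over the 4 arrays. The receptor is encoded by a gene mutated in inherited forms of hair loss in humans and couples mainly to Gna12 and Gna13. It read 5.96 with LPS and 8.28 without on the arrays labelled Bid-/-, and 6.35 with LPS and 8.24 without on the WT arrays. Both LPS arrays lay below both untreated arrays, and the untreated arrays differed by 0.04. The LPS difference was -2.32 on the log2 scale on the arrays labelled Bid-/- (4.99-fold lower) and -1.89 on the WT arrays (3.71-fold lower). Counted from the lowest, these differences ranked 3 of 10995 genes on the arrays labelled Bid-/- and 14 of 11129 on the WT arrays.

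S1pr1, the Gi-coupled S1P receptor, also read lower on both LPS arrays. It read 6.06 with LPS and 7.40 without on the arrays labelled Bid-/-, and 6.15 with LPS and 6.98 without on the WT arrays. The differences were -1.34 and -0.83, and the larger one came with a higher untreated value on the array labelled Bid-/-. S1pr2, which couples to Gna12 and Gna13 among others, read 6.57 with LPS and 6.98 without on the arrays labelled Bid-/-, and 6.28 with LPS and 7.09 without on the WT arrays. Its differences were -0.41 and -0.81, so that the wider gap was on the WT arrays, the reverse of S1pr1.

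Lpar1, a widely expressed LPA receptor of the older family, lay the other way. It read 6.30 with LPS and 5.39 without on the arrays labelled Bid-/-, and 6.09 with LPS and 5.19 without on the WT arrays. Both LPS arrays lay above both untreated arrays, and the differences of 0.91 and 0.90 were nearly equal. With quantile normalization they were past 2-fold on both labels.

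The remaining receptors had smaller mean LPS differences. S1pr4, an S1P receptor of lymphoid and myeloid cells, read 5.01 with LPS and 4.79 without on the arrays labelled Bid-/-, and 5.00 with LPS and 4.96 without on the WT arrays. S1pr3 reached the floor on the WT arrays alone, with 4.42 with LPS and 4.30 without, against 3.98 with LPS and 4.09 without on the arrays labelled Bid-/-. Lpar2 stayed under the floor on all 4 arrays, with 3.93 with LPS and 3.53 without on the arrays labelled Bid-/-, and 4.00 with LPS and 3.57 without on the WT arrays. Its LPS differences were 0.40 and 0.43. Lpar4, the closest relative of Lpar6 among the measured members, was also under the floor, between 2.77 and 3.05. Values under the floor may be background signal, which was not measured here.

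**Figure D1:**
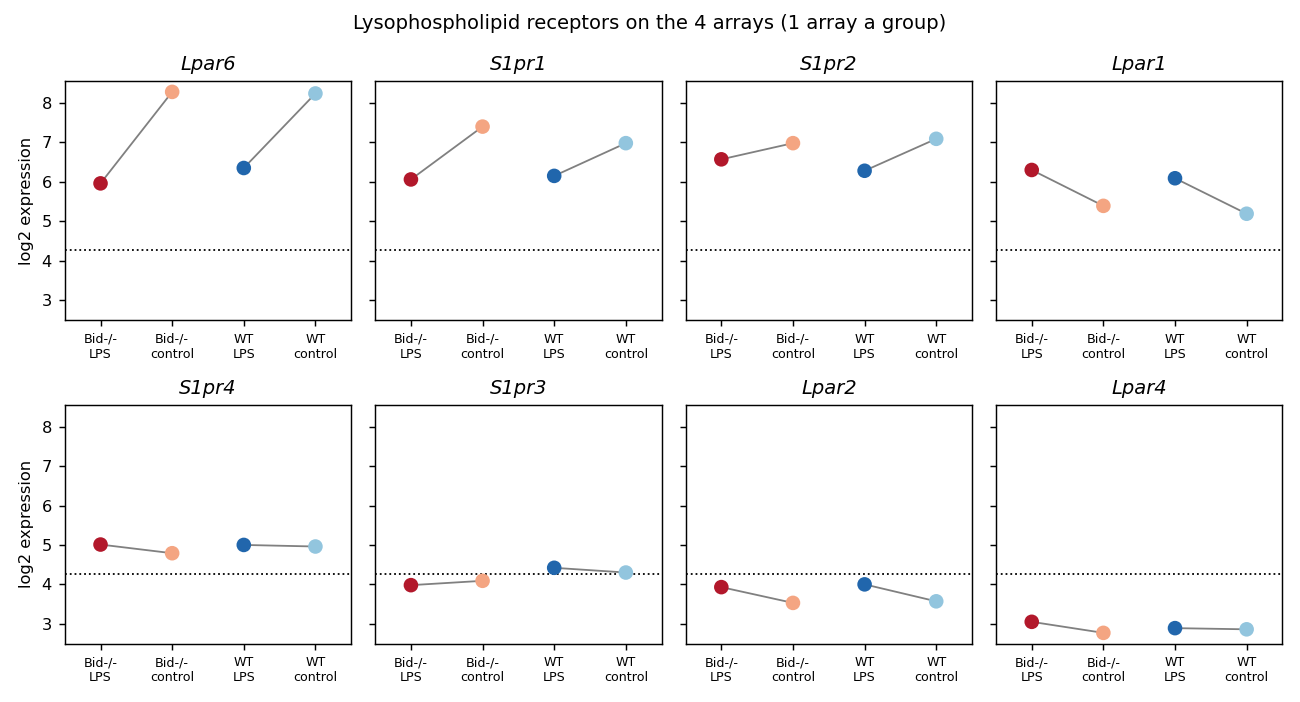
Log2 expression of the 8 measured receptors on each of the 4 arrays, 1 point an array, with a grey line joining the LPS and untreated array of a genotype label and a dotted line at the floor of 4.26. Lpar6, S1pr1 and S1pr2 lie lower on the LPS array of both labels and Lpar1 higher, while Lpar2 and Lpar4 stay under the floor.

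Past a 2-fold difference, the members lower with LPS were Lpar6 and S1pr1 on the arrays labelled Bid-/-, 2 of the 5 members at the floor there, where 1.65% of all genes were at least 2-fold lower and 4.35% differed in either direction. On the WT arrays it was Lpar6, 1 of 6 members, where 2.08% of all genes were at least 2-fold lower and 4.47% differed in either direction. The set was chosen for the fall of Lpar6, so its place in both counts was fixed beforehand. Apart from Lpar6, only S1pr1 on the arrays labelled Bid-/- was at least 2-fold lower. No member (0) was 2-fold higher on either label, where 2.7% of genes were higher on the arrays labelled Bid-/- and 2.39% on the WT arrays. Over all 8 measured members regardless of the floor, 4 lay above 0 and 4 below on the arrays labelled Bid-/-, and 5 above and 3 below on the WT arrays. Their medians were 0.06 and 0.04, against -0.01 and 0.01 over all 19938 genes. Of all genes, 46.0% lay above 0 on the arrays labelled Bid-/- and 51.5% on the WT arrays, so a split of this kind is not particular to the receptors. The 8 include Lpar2 and Lpar4, which stayed under the floor.

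**Figure D2:**
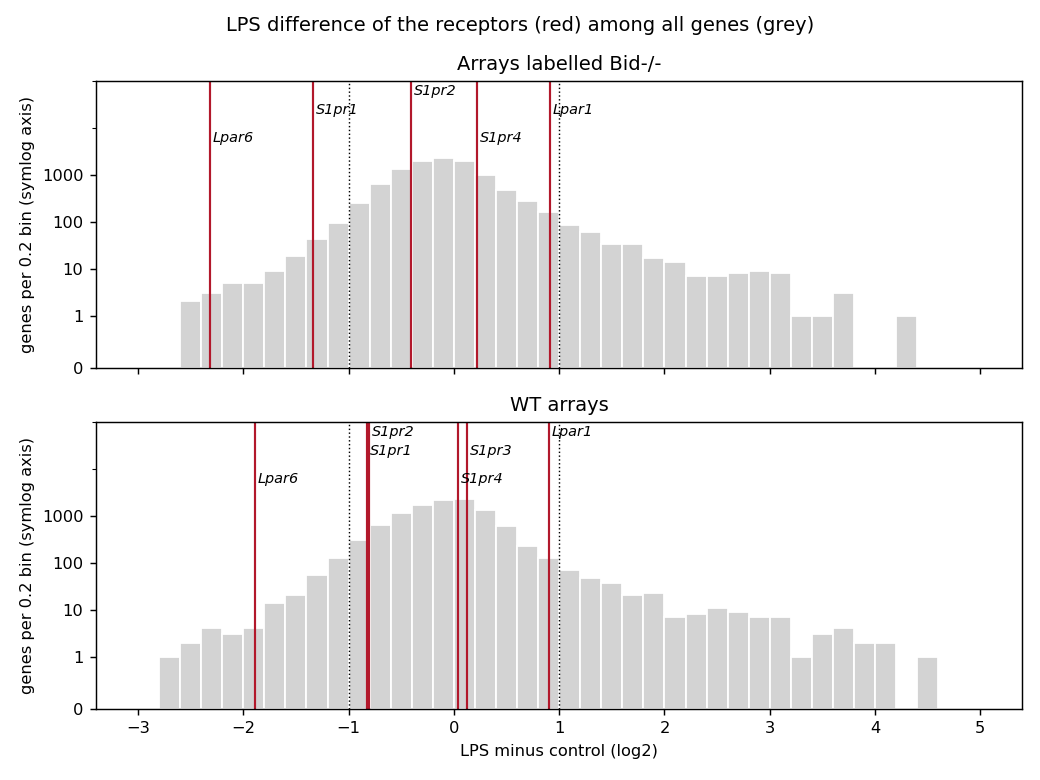
LPS minus control (log2) of the receptors at the floor (red lines) over the distribution of all genes in bins of 0.2 (grey bars, symlog count axis), for the arrays labelled Bid-/- above and the WT arrays below; dotted lines mark 2-fold. Lpar6 stands in the lower tail on both labels, at -2.32 and -1.89, and Lpar1 just inside the upper line at 0.91 and 0.90.

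Markers of cell types moved with some of these values. The microglia markers at the floor had a median LPS difference of -0.56 on the arrays labelled Bid-/- and -0.50 on the WT arrays over 10 genes, with 10 and 9 below 0. Over all genes at the floor the medians were -0.10 and -0.05, with 6607 of 10995 and 6086 of 11129 below 0. P2ry12 was at the floor on the untreated arrays alone (4.38 labelled Bid-/- and 4.33 in WT). Under the floor, Gpr34 (0.07 and 0.12) and Siglech (0.27 and 0.12) lay above 0. The summed level of all 12 measured microglia markers was 12.39 with LPS and 12.87 without on the arrays labelled Bid-/-, and 12.65 with LPS and 13.07 without on the WT arrays (log2 of the summed linear values). This sum and those below include measured markers under the floor. Lpar6 and S1pr1 were lower with LPS on the same arrays. In such bulk RNA fewer cells of a type and less RNA per cell cannot be told apart. Fibroblast and mural markers had a summed level of 9.68 with LPS and 9.80 without on the arrays labelled Bid-/-, and 9.69 with LPS and 8.75 without on the WT arrays. Of those at the floor, 4 of 9 and 9 of 9 had LPS differences above 0, beside 4248 of 10995 and 4897 of 11129 genes in all. Lpar1, a receptor that fibroblasts also express, was higher with LPS on both labels. So were Pdgfrb (1.11 on the arrays labelled Bid-/- and 0.76 in WT) and Fn1 (0.46 and 1.18) of this list, named after their values were seen. On the arrays labelled Bid-/- 5 of the 9 at the floor lay below 0, among them Dcn (-0.65), Acta2 (-0.50) and Tagln (-0.49). Astrocyte markers summed to 7.43 with LPS and 7.28 without on the arrays labelled Bid-/-, and to 7.58 with LPS and 7.20 without on the WT arrays. Endothelial markers, of interest because endothelium expresses S1pr1, summed to 7.39 with LPS and 7.27 without on the arrays labelled Bid-/-, and to 7.33 with LPS and 7.17 without on the WT arrays. The part of any of these cells in the receptor values was not tested.

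Between the genotype labels the receptors differed by less than 2-fold in every comparison. Without LPS the differences of the 6 members at the floor, labelled Bid-/- minus WT, ran from -0.21 (S1pr3) to 0.42 (S1pr1), and 0 of 6 were at least 2-fold apart, as were 0.431% of all genes (0.358% higher and 0.0733% lower). The fibroblast and mural markers at the floor were higher on the untreated array labelled Bid-/- for 9 of 9 genes, beside 5632 of 10909 genes in all. Pdgfra entered only through that array (5.18, against 4.19 in WT). Of the markers under the floor, Lum was at 0.65, Cspg4 at 0.00 and Rgs5 at -0.06. The part of these cells in the receptor values was not tested. With LPS the receptor differences ran from -0.44 (S1pr3) to 0.29 (S1pr2), with 0 of 6 past 2-fold beside 0.815% of all genes (0.326% higher and 0.489% lower). S1pr3 entered both comparisons only through the WT arrays, where it is higher. The next lowest were S1pr4 without LPS (-0.17) and Lpar6 with LPS (-0.39). The difference of LPS response, labelled Bid-/- minus WT, ran from -0.51 (S1pr1) to 0.40 (S1pr2) with Lpar6 at -0.43, and 0 of 6 were past 2-fold beside 0.786% of all genes. It was not tested, since 4 arrays leave no error for it.

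An additive model of log2 expression on genotype label and LPS, fitted with limma over 11326 genes, gives a test of differences shared by both conditions, with 1 residual degree of freedom. For genotype it called 0 genes higher and 0 lower (0.0%) at an adjusted p under 0.05, and 709 genes (6.26%) had an unadjusted p under 0.05. S1pr3 entered the fit only through the WT arrays, where it is higher, so its genotype p is not used. For the other 5 members in the fit the limma adjusted p lay between 0.623 and 0.846. Lpar6 had a mean difference of -0.175 (SE 0.174, limma adjusted p = 0.714). Sex, background and culture of the cells labelled Bid-/- cannot be told apart from the genotype in these values. Of the 8 measured members 0 lie on chromosome 6, which carries Bid and Lpar5.

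The 5 genes whose profile was most like that of Lpar6 were chosen by the distance between 4-array profiles, each centred on its own mean, over 11326 genes. They were Ptger4, a prostaglandin E2 receptor (distance 0.174, LPS differences -2.16 on the arrays labelled Bid-/- and -2.06 in WT), Rab3il1, a Rab exchange factor (0.244, -2.16 and -2.19), Nrros, which binds latent TGF-beta in microglia (0.399, -2.32 and -2.33), Tmem104 (0.426, -1.76 and -1.92) and Rab7b, an endosomal Rab GTPase (0.446, -1.84 and -1.57). Among the other members S1pr1 was the nearest, at a distance of 1.076 and rank 95, and Lpar1 the farthest, at 3.042 and rank 11007. The measure rests on 4 arrays, and the LPS falls of these 5 genes follow from their choice by likeness to Lpar6.

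Lpar6 lies within the span of Rb1, the retinoblastoma tumour suppressor gene, on chromosome 14. Rb1 read 7.31 with LPS and 7.31 without on the arrays labelled Bid-/-, and 6.76 with LPS and 7.47 without on the WT arrays. Its LPS differences of 0.00 and -0.71 did not follow the -2.32 and -1.89 of Lpar6 (limma adjusted p of Rb1 = 0.376). Rcbtb2, the gene beyond Rb1, differed by -1.14 and -0.82 with LPS, just short of the threshold (SE 0.139, limma adjusted p = 0.0527). Itm2b (-0.21 and -0.14) and Med4 (-0.08 and 0.07) differed little, and Cysltr2 was under the floor.

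**Figure D3:**
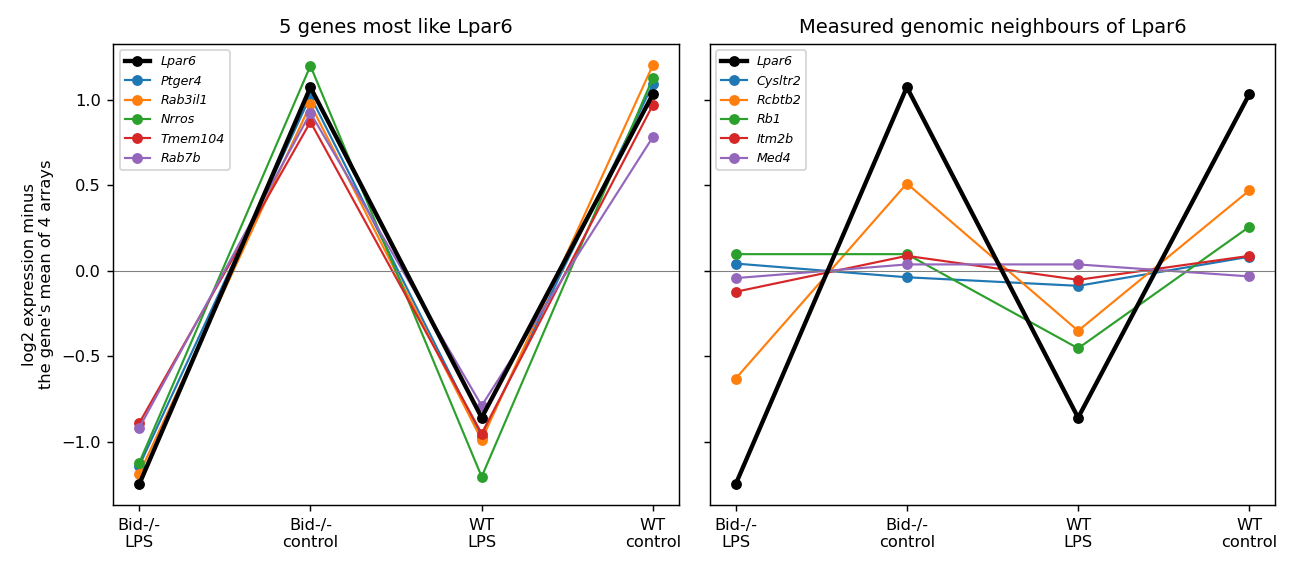
Log2 expression minus each gene's own mean over the 4 arrays, 1 point an array, for Lpar6 (black) with the 5 genes of most similar profile on the left and with its 5 measured genomic neighbours on the right. The similar genes follow Lpar6 closely because they were chosen for that. Of the neighbours, which were chosen by position, Rcbtb2 shows the widest LPS difference after Lpar6 on both labels and Rb1 is level on the arrays labelled Bid-/-.

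The genes around the receptors were then followed in 7 lists, tested for LPS in the same limma fit, which called 190 genes higher (1.68%) and 177 lower (1.56%), with 28.8% at an unadjusted p under 0.05. The total of 367 was 0 with no floor, where the limma adjusted p of the 7 genes named as passed below lay between 0.0964 and 0.127, and 1928 after quantile normalization. Some genes named below as short of the threshold passed after quantile normalization, so not passing also depends on the setting.

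Of the receptors for other lysolipids and their proton-sensing relatives, 4 of 11 measured reached the floor and 1 fell. That was Gpr65, a proton-sensing receptor of leukocytes, which read 6.97 with LPS and 8.70 without on the arrays labelled Bid-/-, and 6.74 with LPS and 8.75 without on the WT arrays. Its differences were -1.73 and -2.01 (SE 0.159 for their mean, limma adjusted p = 0.0302), close in size to those of Lpar6. Ptafr, the receptor for platelet-activating factor, was 0.41 and 0.30 higher and did not pass. S1pr5, an S1P receptor of oligodendrocytes and natural killer cells, read 4.06 with LPS and 3.79 without on the arrays labelled Bid-/-, and 4.30 with LPS and 3.49 without on the WT arrays. P2ry10b differed by 0.18 and -0.10, and Lpar3 was under the floor.

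Among the P2Y nucleotide receptors, the relatives of Lpar4 and Lpar6, 1 of 6 tested rose and 0 fell. P2ry2, a receptor for ATP and UTP, rose, with 1.03 on the arrays labelled Bid-/- and 1.44 in WT (SE 0.146, limma adjusted p = 0.0442; 0.0536 without the intensity trend). P2ry13 was at -1.05 and -0.77 (limma adjusted p = 0.0576), P2ry14 at -0.64 and -0.26, and P2ry12 at -0.48 and -0.42. P2ry12 and P2ry13 are also on the list of microglia markers above. Members of this family lay on both sides of 0, as genes did in general.

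Of the genes that make or break down LPA, 1 of 19 tested rose and 0 fell. Pla1a, a secreted phospholipase that yields lysophosphatidylserine, rose by 0.81 and 0.85 (SE 0.100, limma adjusted p = 0.045; 0.0577 without the intensity trend). Plpp3, a phosphatase that degrades extracellular LPA and S1P, read 7.30 with LPS and 6.48 without on the arrays labelled Bid-/-, and 6.59 with LPS and 5.65 without on the WT arrays. It narrowly missed the threshold for LPS (limma adjusted p = 0.0543) and was also 0.83 without and 0.71 with LPS higher on the arrays labelled Bid-/- (limma adjusted p = 0.623). Agpat4, which acylates LPA to phosphatidic acid, was at 0.63 and 0.61, and Gpam, which makes intracellular LPA, at -0.59 and -0.81 (limma adjusted p = 0.0588 for both). Autotaxin (Enpp2) was named on no probe set with 1 symbol.

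Of the S1P genes 0 of 19 tested rose and 1 fell. Sgpp1, the endoplasmic reticulum phosphatase that returns S1P to sphingosine, read 5.74 with LPS and 6.91 without on the arrays labelled Bid-/-, and 5.97 with LPS and 7.08 without on the WT arrays. Its differences were -1.17 and -1.11 (SE 0.124, limma adjusted p = 0.0384). The kinase gene Sphk1 differed by 0.12 and 0.14 and Sphk2 by -0.14 and 0.11. Smpd1, the acid sphingomyelinase, was at -0.87 and -0.60, Cers6, a ceramide synthase, at 0.81 and 0.52, and Spns1, a lysosomal lysolipid transporter, at -0.49 and -0.80, none past the threshold. The median of the S1P genes at the floor was -0.27 and -0.36, beside -0.10 and -0.05 over all genes at the floor. Over all 25 measured S1P genes it was -0.14 and -0.10, beside -0.01 and 0.01 over all 19938 genes.

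Downstream of the receptors, 0 of 23 genes for G proteins and effectors passed in either direction for LPS. Gna13, a G protein subunit to which Lpar6 and S1pr2 couple, was 1.13 higher on the arrays labelled Bid-/- and 0.69 in WT (SE 0.176, limma adjusted p = 0.0709). Gna12 differed by -0.31 and -0.25, Gng2 by -0.64 and -0.17 and Gng10 by -0.63 and -0.27. SRF and YAP targets, a list that also holds the regulators Srf, Mrtfa, Mrtfb, Yap1 and Wwtr1, gave 0 of 13. The median of this list was -0.05 on the arrays labelled Bid-/- and 0.62 in WT. Srf was at 0.44 and 0.86, Wwtr1 at 0.47 and 1.06, Vcl at 0.57 and 0.43, and Tagln at -0.49 and 1.60. Acta2 and Tagln are on this list and among the fibroblast and mural markers above.

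Of the regulators of these receptors 2 of 14 tested rose and 1 fell. Rgs1, which switches off Gi signalling, read 8.63 with LPS and 6.47 without on the arrays labelled Bid-/-, and 8.68 with LPS and 5.52 without on the WT arrays. It rose by 2.16 and 3.16 (SE 0.284, limma adjusted p = 0.038). Cd69, the membrane partner that draws S1pr1 off the cell surface, read 9.31 with LPS and 7.83 without on the arrays labelled Bid-/-, and 9.32 with LPS and 7.62 without on the WT arrays. It rose by 1.48 and 1.70 (SE 0.153, limma adjusted p = 0.0327). Rgs2, which acts mainly on Gq, was at -1.19 and -1.16 and fell (SE 0.111, limma adjusted p = 0.0327). Klf2, a transcription factor that drives S1pr1 in T cells, was at -0.68 and -0.69 (SE 0.109, limma adjusted p = 0.0578), beside -1.34 and -0.83 for S1pr1.

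**Figure D4:**
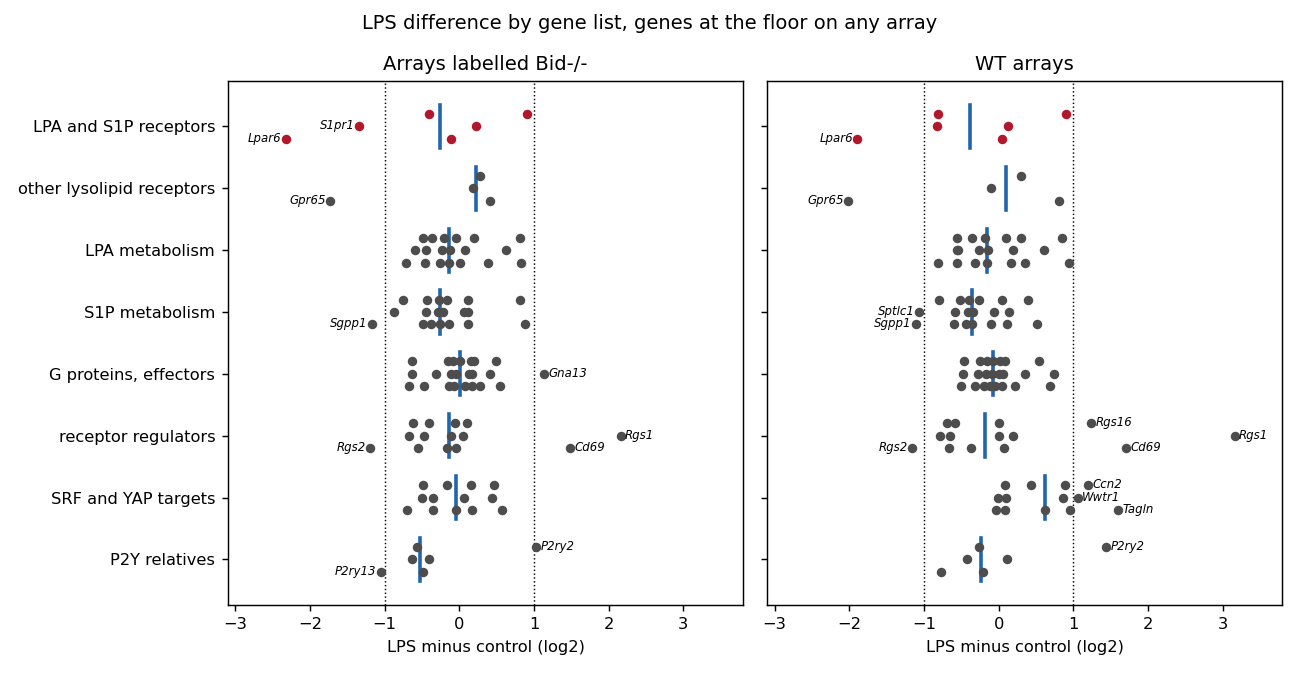
LPS minus control (log2) of each gene at the floor on any array, by list, for the arrays labelled Bid-/- on the left and the WT arrays on the right; blue bars are list medians, dotted lines mark 2-fold and genes past them are named. Lpar6 and Gpr65 lie farthest left on both labels, and Rgs1, Cd69 and P2ry2 lie past 2-fold on the right on both.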

How the data were processed

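The authors deposited 1 table of log2 expression for 28944 probe sets on 4 arrays; per the submitters' processing notes, the tools were Partek 6.2, Affymetrix Expression Console and RMA, whose roles are not stated. The values run from 1.4 to 13.5 with 2 decimals, and the log base, not written in the file, was taken as 2. RMA normally brings arrays to a common distribution, which would remove a shift shared by all genes.

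Probe sets were named from the platform annotation, symbols updated by Entrez identifier through RefSeq (GRCm38.p6): 21789 carried 1 symbol, 1621 several and 5534 none. For a gene with several, the probe set with the highest 4-array mean was used; each measured member had 1. A gene entered a comparison of 2 arrays when the higher reached the floor of 4.26, and the fit when any array did. Differences of at least 2-fold were counted without a test. The additive fit used limma 3.58.1 in R 4.3.3 (eBayes with an intensity trend, Benjamini-Hochberg, threshold 0.05) and was checked on simulated data; 169 genes had a residual of exactly 0 because of rounding. The p-values of the fit rest on 4 arrays, whose spread may be technical. Promoters came from RefSeq (GRCm38.p6).

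The members, lists and named genes were chosen with earlier results of these data known. Named were all members, Bid, the 3 protein-coding neighbours of Lpar6 on each side, the 5 genes of nearest profile, and, for each list, up to 4 genes with the largest mean LPS difference and any past 2-fold on both labels. Sphk1, Sphk2 and Gna12 were added for their roles after their values were seen. Alternatives were the probe set rule, the floor, quantile normalization, removal of trends with intensity and gene span (statsmodels lowess), a 1.5-fold call, and, for the fit, no trend and noise of 0.005 within the rounding.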

Additional observations from a re-analysis of the deposited data

Results flagged for a closer look

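Among the members, Bid and the list genes named for their LPS difference, S1pr3, Bid, P2ry10b and Tagln had LPS differences of opposite sign on the 2 genotype labels. The share of all genes with opposite signs was not counted, so this is not shown to be particular to them. Each group had 1 array, and the difference was not tested. Genes named for other reasons also had opposite signs, among them Sphk2 (-0.14 on the arrays labelled Bid-/- and 0.11 in WT), Med4 (-0.08 and 0.07) and Acta2 (-0.50 and 0.89). S1pr3 was at -0.11 on the arrays labelled Bid-/-, where it was under the floor, and 0.12 in WT. Bid was at 0.44 on the arrays labelled Bid-/- and -0.67 in WT, and P2ry10b at 0.18 and -0.10. Tagln was at -0.49 on the arrays labelled Bid-/- and 1.60 in WT.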

How the results depend on the processing

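The LPS difference of Lpar6 lay between -2.32 and -2.20 on the arrays labelled Bid-/- and between -1.89 and -1.79 in WT over 6 settings. Only quantile normalization (-2.27 and -1.84) and removal of the intensity trend (-2.20 and -1.79) could move it. The other settings could not, since Lpar6 has 1 probe set and lies above the floor. Of the member values, those past 2-fold, all of them LPS differences, kept their sign in every setting run. Gene span trends were not removed from LPS differences. In the other comparisons 2 small values changed sign with intensity and gene span trends removed: S1pr1 between labels with LPS (0.03, against -0.09) and Lpar1 for the difference of response (-0.12, against 0.01). The same setting put Lpar1 between labels with LPS at 0.01, against 0.21, and S1pr4 at 0.23, against 0.01, with its difference of response at 0.40, against 0.18. The members past 2-fold in WT were 2 instead of 1 after quantile normalization and 2 after removal of the intensity trend, with Lpar1 added both times at up to 1.05 (on the arrays labelled Bid-/- they were 3 instead of 2, with Lpar1 at up to 1.10), and 4 at a 1.5-fold call (Lpar1, S1pr1 and S1pr2 added). At 1.5-fold the genes called were 1898 and 1877 for LPS on the arrays labelled Bid-/- and WT, 206 and 1188 for genotype label without and with LPS, and 1055 for the difference of response, against 478, 497, 47, 90 and 89 at 2-fold. The additive fit called 367 genes for LPS, but 0 with no floor, 890 with a floor of 5, 1928 after quantile normalization and 1907 with noise within the rounding; for genotype it called 0, but 40 after quantile normalization and 3 with that noise. The cause was not tested. Of the genes called for LPS on the arrays labelled Bid-/-, 62.1% were higher, against 71.9% after quantile normalization and 79.0% after removal of the intensity trend, but 39.9% at a 1.5-fold call (757 higher, 1141 lower). That removal moved the median of all genes there to 0.01, against -0.10. In WT the share was 53.5%, against 66.5% after that removal, but 34.4% at 1.5-fold (646 higher, 1231 lower). The majority of calls was thus lower at 1.5-fold on both labels. Between labels with LPS it was 40.0%, against 53.4% after quantile normalization, and for the difference of response 20.2%, against 31.6% with intensity and gene span trends removed. Of the 7 list genes that passed, 0 did so with no floor, and Pla1a and P2ry2 did not without the intensity trend in eBayes. Other list genes passed both after quantile normalization and with noise within the rounding, among them Gna13, Plpp3, P2ry13, Klf2, Wwtr1, Smpd1 and Gpam. The list counts of 0 passing thus depend on the setting. No other probe set of a member could be tried, since each had 1. No paired analysis was possible because the labels carry no replicate numbers and each group holds 1 array; the additive fit has the genotype label as a term. Probe-level background was not used here, so for Lpar2, Lpar4 and S1pr3 signal cannot be set against it.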
